A study of Mus musculus with 16 samples.

Results

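The perilipins and the genes that work with them on lipid droplets were followed here in mouse aortic valves. The list was chosen by name, with earlier results of these data known. It holds 10 of the 20992 genes in the deposited table: PLIN1, PLIN2, PLIN3, PLIN4, PLIN5, CIDEC, CIDEB, PNPLA2, DGAT1 and DGAT2, in the capitals of that table. Valves of 4 groups of C57BL/6J mice were measured by RNA sequencing, and each library is taken as 1 mouse, since the design plans 4 mice a group. HC/HT mice lacked Apoe and carried human renin and human angiotensinogen transgenes (n = 3, 2 females and 1 male), and HC/HT replicate 4 of the labels was not analysed here because no named column carries its label. HC mice lacked Apoe and were the model of high cholesterol (n = 4, 3 females and 1 male). HT mice carried both transgenes on an intact Apoe background and were the model of hypertension (n = 4, 2 females and 2 males). CON mice had neither change (n = 4, 1 female and 3 males). The age and diet of the mice and the promoters that drive the transgenes are not given in the sources used here.

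A lipid droplet is a store of neutral lipid, triglyceride and cholesteryl ester, wrapped in a single layer of phospholipid. Perilipins coat this surface and govern the access of lipases, while CIDE proteins let droplets exchange lipid and grow. In an artery wall or valve, macrophages that take up lipoprotein fill with such droplets and become foam cells, and fat cells next to the tissue carry 1 very large droplet of their own.

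PLIN2 was the member that stood apart by genotype. It codes for the perilipin found in most cells and typical of foam cells, and it lies on the minus strand at chr4:86648386-86670060 of mm10. The RefSeq promoter window of the gene (GRCm38.p6, chr4:86670010-86670309, minus strand, from 250 bases before to 50 bases after the start) is shown because PLIN2 carries the main result. Capitals mark the core motif of nuclear receptors, AGGTCA, here on the other strand as TGACCT, and a GC box, GGGCGG.
PLIN2: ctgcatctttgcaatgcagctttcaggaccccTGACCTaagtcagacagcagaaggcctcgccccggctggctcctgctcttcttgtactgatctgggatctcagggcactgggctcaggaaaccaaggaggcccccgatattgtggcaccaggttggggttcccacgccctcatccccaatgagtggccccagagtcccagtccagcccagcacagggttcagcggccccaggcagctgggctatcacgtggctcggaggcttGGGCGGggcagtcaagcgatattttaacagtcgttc
Both motifs were searched on both strands and do not overlap. The core motif stands in 16.3% of the 32851 promoter windows of the same length and the GC box in 35.7%. Of the 8 members matched to the table, PLIN2 and PLIN5 held the core motif, and CIDEB, PLIN2, PLIN3, PLIN5 and PNPLA2 held the GC box. The DR1 repeat of the core motif, bound by PPAR and RXR, stood in no member's window and in 0.0396% of all windows.

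The deposited values are whole numbers, taken as the authors' normalised counts after rounding, which were rescaled by 1 common factor to a library total near 1000000 and are called units below. Deposited totals were nearly equal (10207928 to 10210305), so the sequencing depth is unknown. The small number of libraries limits the precision, and how far depth limits it further cannot be told. APOE itself read 2.15 to 12.3 units in the 7 knockout libraries and 56.6 to 1014 units in the 8 intact ones. All 10 markers of valve interstitial cells and fibroblasts and all 8 endothelial markers were above 0 in every library. A set of 4 rows that take the largest share held 32.4% to 62.7% of each library's total, with means of 50.9% ± 4.87 in HC/HT, 41.4% ± 8.86 in HC, 54.4% ± 9.63 in HT and 41.6% ± 11.2 in CON (SD). The median difference of all genes was -0.42 (log2) in HT against CON, but -0.01 with median-of-ratios factors. The numbers that open the library names run from 1 to 7 in knockout and from 9 to 17 in intact libraries. The labels do not say what they mark, and whatever they mark cannot be told apart from the Apoe genotype.

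Of the 10 members, 6 reached at least 1 unit in at least 4 libraries and were tested: PLIN2, PLIN3, PLIN4, CIDEC, PNPLA2 and DGAT1. PLIN1, PLIN5 and DGAT2 reached 1 unit in 1, 3 and 3 libraries, and CIDEB in none. CIDEC passed the filter through intact libraries alone, so its lower level in knockout libraries is partly built into that selection. Levels per kilobase of annotated exon allow genes to be ranked within a group. In HC/HT valves PLIN2 stood highest at 13.5 ± 1.63 units per kilobase, ahead of PNPLA2 at 8.27 ± 2.38, PLIN3 at 3.91 ± 1.47, DGAT1 at 3.23 ± 0.595 and PLIN4 at 1.09 ± 0.391 (SD, n = 3). HC valves had the order PLIN2 (19.5 ± 5.50), PNPLA2 (6.70 ± 1.75), PLIN3 (4.23 ± 1.77), DGAT1 (3.43 ± 0.734) and PLIN4 (1.73 ± 1.05; SD, n = 4). In HT valves PNPLA2 led at 7.91 ± 1.57 units per kilobase, followed by PLIN2 at 3.61 ± 2.24, and in CON valves PNPLA2 led at 10.1 ± 1.17, followed by PLIN2 at 6.44 ± 2.23 (SD, n = 4 each). PLIN3, DGAT1 and PLIN4 lay within 1 SD of each other in CON valves. The other 5 members stayed under 1 unit per kilobase on average in all 4 groups.

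**Figure D1:**
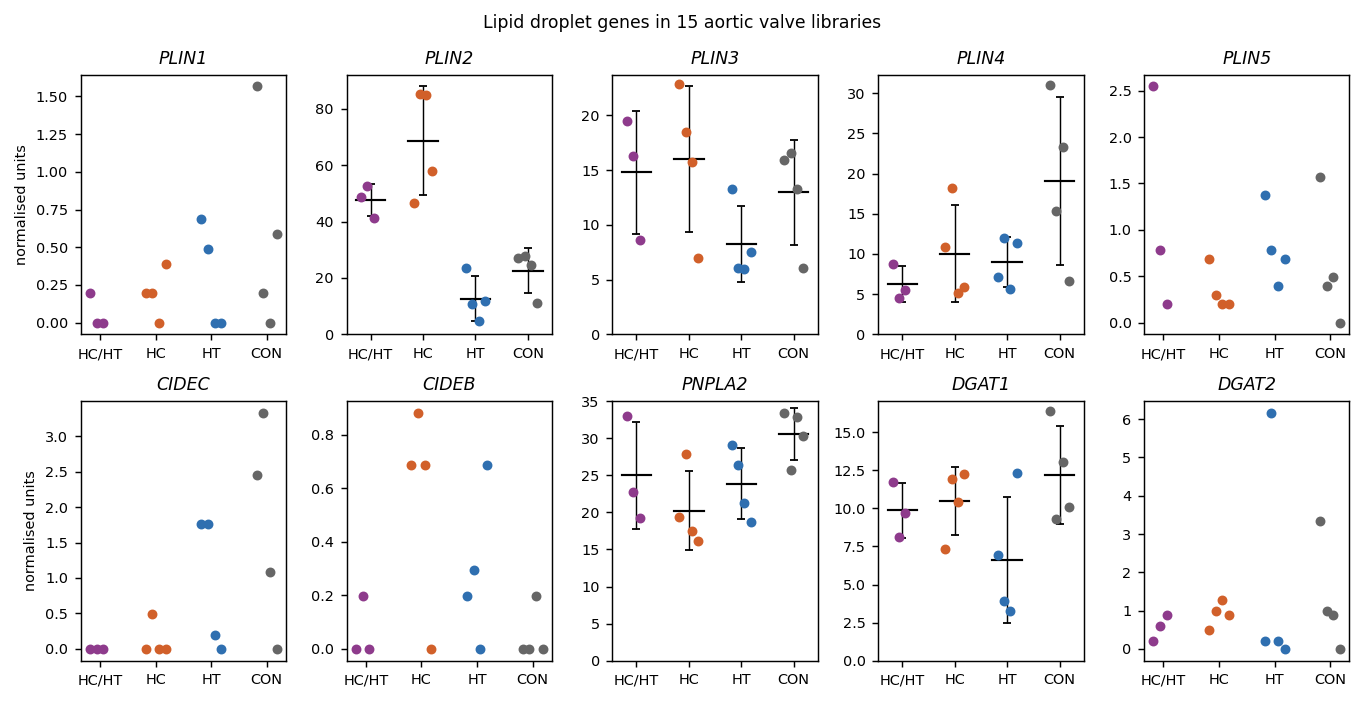
Level of each member gene in units (vertical axes, 1 panel a gene) in the 3 HC/HT, 4 HC, 4 HT and 4 CON libraries, 1 point a library. Lines and bars give the group mean and SD for the 5 genes well above 0. PLIN2 lies between 41.3 and 85.0 units in knockout libraries, above all intact ones.

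PLIN2 read 48.6, 52.6 and 41.3 units in the HC/HT libraries and 46.7, 85.0, 84.6 and 57.9 units in the HC libraries. It read 23.5, 10.7, 4.70 and 11.9 units in the HT libraries and 27.2, 27.6, 24.6 and 11.1 units in the CON libraries. Each knockout library lay above every intact library, and the HT and CON libraries overlapped. The mean was 59.5 ± 18.0 units in knockout valves (SD, n = 7) and 17.7 ± 9.00 units in intact valves (SD, n = 8), a ratio of 3.37. With both pairs of groups averaged and sex in the fit, PLIN2 was higher in knockout valves by 1.70 ± 0.29 (log2 ± SE, adjusted p = 0.00120), rank 27 of the 15004 genes tested. It was the only 1 of the 6 tested members to pass in this comparison, where 1.47% of all genes tested passed. Its groups did not overlap, as was so, in the same direction, for 0.673% of all genes. Its call held in all 25 alternatives, with an adjusted p of at most 0.0394. In these bulk libraries, a change in the number of cells of a type and a change of RNA per cell cannot be told apart.

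Within each transgene background the same direction was measured with fewer libraries. In HC/HT valves PLIN2 averaged 47.5 ± 5.71 units (SD, n = 3) against 12.7 ± 7.87 units in HT valves (SD, n = 4), a difference of 1.95 ± 0.40 (adjusted p = 0.0296). PLIN2 was again 1 of 6 tested members to pass, with 0.373% of all genes passing, and its groups did not overlap, like 4.99% of all genes that were higher without overlap. This call was lost without HT replicate 2 (adjusted p = 0.228), HT replicate 3 (0.0744), HT replicate 4 (0.0520), HC/HT replicate 1 (0.254) or HC/HT replicate 2 (0.174), and with no filter on low values (0.122). In HC valves PLIN2 averaged 68.6 ± 19.3 units against 22.6 ± 7.82 units in CON valves (SD, n = 4 each), without overlap, as was 2.81% of all genes in the same direction. The difference of 1.44 ± 0.40 did not pass (adjusted p = 0.261), and none of the 6 tested members passed where 0.167% of all genes did. At an unadjusted p under 0.05, 2 of the 6 members, PLIN2 and CIDEC, and 4.01% of all genes passed. Under quantile normalisation PLIN2 passed in this comparison (adjusted p = 0.0425).

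In HC/HT against CON valves PLIN2 differed by 0.99 ± 0.42 (adjusted p = 0.361), again higher without overlap, like 2.89% of all genes. Here 0 of the 6 members passed by limma against 0.467% of all genes. At an unadjusted p under 0.05, 3 of the 6 members, PLIN2, PLIN4 and CIDEC, and 11.4% of all genes passed. Nothing is read from either count, since the filter kept CIDEC through libraries in which it is high. The effect of the knockout on PLIN2 was not shown to differ between transgenic and nontransgenic mice (interaction 0.51 ± 0.55, adjusted p = 1.00). Here 0 of the 6 members passed, 0 at an unadjusted p under 0.05, and 0% and 1.38% of all genes did so.

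No tested member passed as higher in valves with the hypertensive transgenes. In a limma fit without the filter, averaged over Apoe genotypes, PLIN5 differed by 0.41 ± 0.25 (adjusted p = 0.465). PLIN1, CIDEB and DGAT2 had values below 0 there. In HT against CON valves PLIN2 read 0.97 ± 0.38 lower (adjusted p = 0.359), and 0.53 lower with median-of-ratios factors. With limma 0 of the 6 tested members and 0% of all genes passed, and 2 members and 12.8% of all genes had an unadjusted p under 0.05. In HC/HT against HC valves PLIN2 differed by -0.46 ± 0.40 (adjusted p = 0.984), and the groups overlapped. Here 0 of 6 members and 0% of all genes passed, with 0 members and 4.41% of all genes at an unadjusted p under 0.05. Averaged over Apoe genotypes, the transgenes went with a PLIN2 difference of -0.71 ± 0.27 (adjusted p = 0.221), or -0.40 with median-of-ratios factors. In that average 0 of 6 members and 0.0133% of all genes passed, with 2 members and 16.7% of all genes at an unadjusted p under 0.05.

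**Figure D2:**
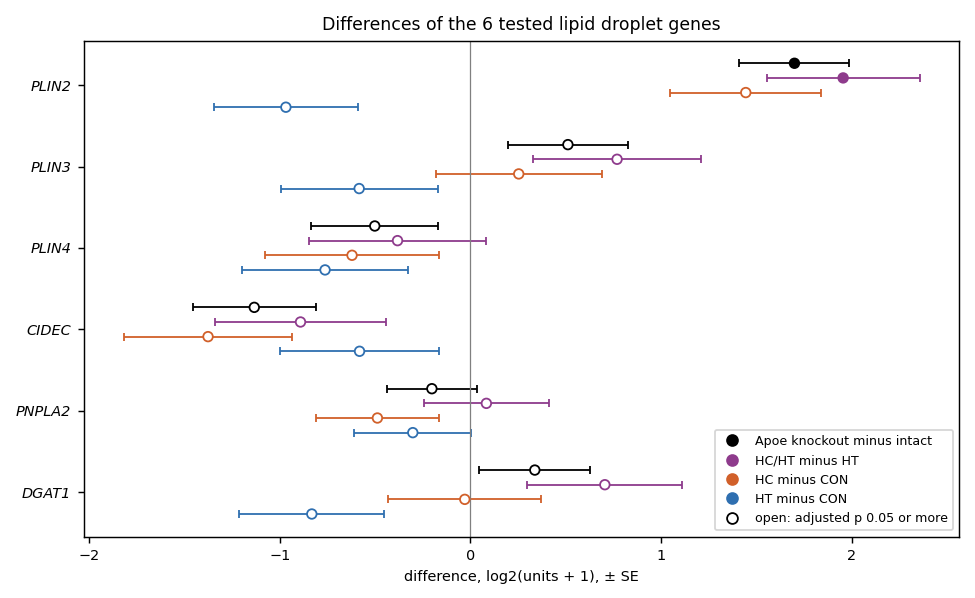
Fitted difference (log2, horizontal axis) with its SE for the 6 tested members in 4 of the comparisons. PLIN2 lies at 1.70 in Apoe knockout against intact valves and at 1.95 in HC/HT against HT valves, the only differences drawn that passed at an adjusted p under 0.05.

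The make-up of the perilipin transcripts was compared within each library, where scaling between libraries plays no role. This measure was chosen after the values were seen and carries no test. PLIN2 made up 61.6% to 84.5% of the summed level per kilobase of the 5 perilipin genes in knockout libraries (median 74.6%) and 32.7% to 54.6% in intact libraries (median 45.7%). PLIN4 made up 3.02% to 9.72% in knockout libraries (median 6.29%) and 10.1% to 29.1% in intact ones (median 24.9%). Neither share overlapped between the genotypes, but the shares sum to a fixed total, so a higher PLIN2 lowers the PLIN4 share by construction. The level of PLIN4 itself did overlap, at 4.51 to 18.2 units in knockout and 5.68 to 31.0 units in intact libraries. The share of PLIN3 did overlap, at 9.41% to 27.9% in knockout and 22.3% to 38.6% in intact libraries. Per kilobase, PLIN2 exceeded PNPLA2 in 7 of 7 knockout libraries, by a ratio of 1.27 to 4.17, and in 0 of 8 intact libraries, where the ratio was 0.190 to 0.926. These counts depend on the exon lengths used. In units not divided by length, PLIN2 (27.6) exceeded PNPLA2 (25.7) in CON replicate 2.

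Some macrophage markers were higher in the same comparison as PLIN2. The 13 markers measured were above 0 in every library and summed to 1945 to 4468 units in knockout libraries (median 2880) and to 173 to 1595 units in intact ones (median 1043). Of these 13 markers, 6 were higher in knockout valves and 0 lower at an adjusted p under 0.05, where 1.47% of all genes passed. Their median difference was 1.28 beside 0.09 for all genes. The other 7 did not pass, and CD163, a scavenger receptor of resident macrophages, read 0.196 to 15.4 units in knockout and 0.980 to 12.0 units in intact libraries, a difference of -0.75 ± 0.42 (adjusted p = 0.632). Foam-cell markers showed 8 of 9 higher and 0 lower, with a median of 2.76. Both marker lists were chosen with earlier results of these data known. CD68, a lysosomal protein of macrophages, read 75.7 to 157 units in knockout and 7.15 to 45.2 units in intact libraries. PLIN2 per unit of CD68 was 0.386 to 0.641 in knockout libraries (median 0.542) and 0.382 to 1.04 in intact libraries (median 0.630), and these ranges overlapped. Set as a percentage of the macrophage sum, which does not contain it, PLIN2 was 1.80% to 2.50% in knockout libraries (median 2.01%) and 0.999% to 2.82% in intact libraries (median 2.23%). The part of the macrophage markers in the PLIN2 difference was not tested.

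**Figure D3:**
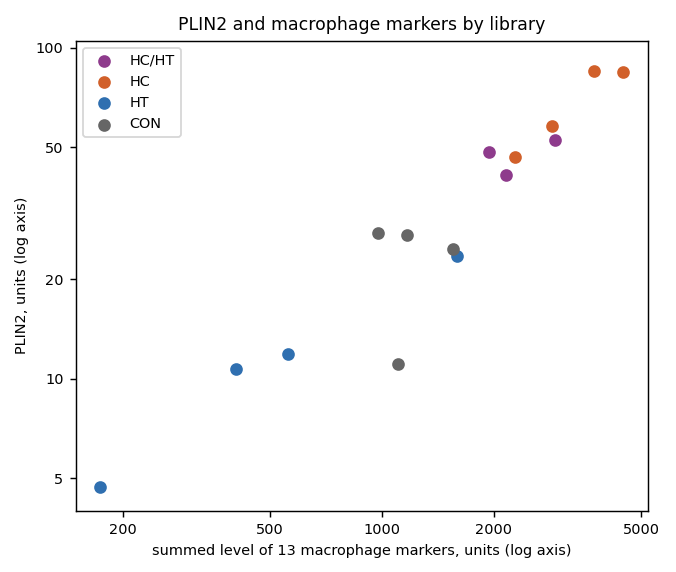
PLIN2 level (vertical axis, units, log scale) against the summed level of 13 macrophage markers (horizontal axis, units, log scale), 1 point a library, coloured by group. Knockout libraries hold sums of 1945 to 4468 and intact libraries 173 to 1595, and the ratio of PLIN2 to the sum overlaps between them.

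The genes most like PLIN2 over the 15 libraries were CTSB, coding for the lysosomal protease cathepsin B (Pearson r = 0.983), PLD3, a lysosomal exonuclease (r = 0.978), and PSAP, the precursor of saposins (r = 0.976). These 15 points share the deposited normalisation, and r is given as a description. CTSB averaged 1022 ± 325 units in knockout valves (SD, n = 7) and 349 ± 181 units in intact valves (SD, n = 8).

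PLIN3, the perilipin that moves from cytosol to new droplets (chr17:56277476-56292873), read 19.5, 16.3 and 8.62 units in HC/HT and 22.8, 18.5, 15.8 and 6.95 units in HC libraries. It read 13.3, 6.07, 5.98 and 7.54 units in HT and 16.0, 16.6, 13.3 and 6.07 units in CON libraries. All 4 groups overlapped, and each held a library under 9 units. The knockout difference was 0.51 ± 0.32 (adjusted p = 0.694) and that of HT against CON -0.58 ± 0.41 (adjusted p = 0.471), or -0.15 with median-of-ratios factors. Its nearest genes by pattern were OSTC (r = 0.980), PTGES3 (r = 0.961) and EIF3L (r = 0.960).

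PLIN4, a perilipin of fat and muscle (chr17:56100591-56109803), read 8.82, 4.51 and 5.49 units in HC/HT and 10.9, 18.2, 5.09 and 5.88 units in HC libraries. It read 7.15, 12.0, 5.68 and 11.4 units in HT and 31.0, 15.4, 23.3 and 6.66 units in CON libraries. CON held the 2 highest values of all 15 libraries but also 1 value under 7 units, and all groups overlapped. The HC/HT difference from CON was -1.15 ± 0.48 (adjusted p = 0.356), that of HC -0.62 ± 0.46 (adjusted p = 1.00) and that of HT -0.76 ± 0.43 (adjusted p = 0.414), or -0.32 for HT with median-of-ratios factors. These 3 comparisons share the CON libraries. Averaged over both pairs, the knockout difference was -0.50 ± 0.33 (adjusted p = 0.727). PLIN4 lies 1797 bases from PLIN5 and overlaps Hdgfl2 on the other strand by 17 bases. Its pattern was most like GPD1, a glycerol phosphate dehydrogenase of fat cells (r = 0.922), RBPMS (r = 0.914) and CAMTA1 (r = 0.906). GPD1 was near the floor, with group means of 0.196 to 2.50 units and 4 of 15 libraries at 0.

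PLIN1, the perilipin of fat-cell droplets (chr7:79720218-79732903), stayed at or under 0.392 units in all 7 knockout libraries and between 0 and 1.57 units in intact ones. PLIN5, the perilipin of heart and other oxidative tissue (chr17:56111601-56117596), read 2.55, 0.784 and 0.196 units in HC/HT libraries, and 0 to 1.57 units in the others. Neither was tested in the filtered fit. In a fit of all 20904 genes above 0 in any library, the knockout difference was -0.30 ± 0.19 for PLIN1 (adjusted p = 0.740) and 0.03 ± 0.26 for PLIN5 (adjusted p = 0.984).

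CIDEC, which lets droplets fuse and grow in fat cells (chr6:113424634-113435760), was listed at 0 in all 3 HC/HT libraries and read 0, 0.490, 0 and 0 units in HC libraries. It read 1.76, 1.76, 0.196 and 0 units in HT and 2.45, 3.33, 1.08 and 0 units in CON libraries. Thus 1 of 7 knockout and 6 of 8 intact libraries were above 0. The knockout difference was -1.13 ± 0.32 (adjusted p = 0.0768). It passed without CON replicate 4 (adjusted p = 0.0261) or without HC replicate 2 (adjusted p = 0.0354), and with a replicate block (adjusted p = 0.0240). Because the filter kept CIDEC through intact libraries alone, these calls support no difference. HC differed from CON by -1.38 ± 0.44 (adjusted p = 0.477) and HC/HT from CON by -1.47 ± 0.46 (adjusted p = 0.181). Its nearest genes by pattern were RBP4 (r = 0.843), NPAS2 (r = 0.842) and KCNK10 (r = 0.836). CIDEC was at 0 in 8 of 15 libraries. Group means were 0.261 to 3.06 units for RBP4 and 0.131 to 1.44 units for KCNK10, so these r values rest largely on levels near 0.

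Fat-cell markers ranged widely in level. ADIPOQ, the hormone adiponectin, was at 0 in the 3 HC/HT libraries and read 0.392, 0.196, 0.392 and 0 units in HC libraries. It read 2.15, 3.13, 0.196 and 0 units in HT and 0.882, 0.588, 1.08 and 0.196 units in CON libraries. LEP, the hormone leptin, was at 0 in 14 of 15 libraries. DIO2, a deiodinase on the same list, read 32.3 to 37.6 units in HC/HT, 33.0 to 167 in HC, 19.0 to 92.3 in HT and 10.9 to 77.5 in CON libraries. The 18 fat-cell markers summed to 57.1 to 68.8 units in HC/HT, 65.3 to 245 in HC, 29.1 to 138 in HT and 34.4 to 138 in CON libraries. In the knockout comparison, where 1.47% of all genes passed with a median of 0.09, 0 of the 11 tested markers passed (median -0.33). The lowest p among them were those of PPARG (0.98 ± 0.34, adjusted p = 0.218), CFD (-0.93 ± 0.34, adjusted p = 0.255), CEBPA (0.87 ± 0.35, adjusted p = 0.322) and GPD1 (-0.52 ± 0.39, adjusted p = 0.778), so the list had values in both directions. Smooth-muscle markers summed to 86.3 to 145 units in HC/HT, 106 to 642 in HC, 134 to 1340 in HT and 294 to 2790 in CON libraries, and 7 of 8 were above 0 in every library. In knockout against intact valves, with 1.47% of all genes passing, 8 of 8 had a value below 0 and 1 passed as lower (median -1.53). There 12 of 12 heart-muscle markers had a value below 0 and 0 passed (median -1.72, beside 0.09 for all genes). The part of the fat, smooth-muscle and heart-muscle markers in the CIDEC and PLIN4 values was not tested.

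CIDEB, known from the liver (chr14:55754050-55758458), read 0, 0.196 and 0 units in HC/HT and 0.686, 0.882, 0.686 and 0 units in HC libraries. It read 0.196, 0.294, 0 and 0.686 units in HT and 0, 0, 0.196 and 0 units in CON libraries. The groups overlapped, and no value reached 1 unit. HC differed from CON by 0.60 ± 0.20 in the fit of all genes (adjusted p = 0.735). The span of CIDEB overlaps that of Nop9 on the other strand by 1451 bases. Without stated strand-specific counting, reads of the pair within that stretch cannot be told apart.

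PNPLA2, the lipase ATGL that starts triglyceride breakdown (chr7:141455198-141460743), reached 1 unit in all 15 libraries. It read 33.0, 22.7 and 19.2 units in HC/HT and 19.4, 27.9, 17.4 and 16.2 units in HC libraries. In HT libraries it read 29.1, 26.4, 21.3 and 18.7 units, and in CON libraries 33.4, 25.7, 32.8 and 30.4 units. Its coefficient of variation over the 15 libraries was 24.3%, the lowest of the 10 members in these units. With median-of-ratios factors it ran from 14.4 units in HC replicate 3 to 42.2 units in HT replicate 2. It was not the least variable member on that scale, so the ranking holds for the deposited scaling alone. HC valves averaged 20.2 ± 5.30 units and CON valves 30.6 ± 3.52 units (SD, n = 4 each), with 1 HC library inside the CON range. The difference was -0.49 ± 0.32 (adjusted p = 1.00), and the averaged knockout difference -0.20 ± 0.23 (adjusted p = 0.889). The genes most like it were PPP2R2D (r = 0.817), TBX18 (r = 0.812) and KRT80 (r = 0.808).

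DGAT1, which makes triglyceride in the endoplasmic reticulum (chr15:76502015-76511953), read 11.8, 8.13 and 9.70 units in HC/HT and 7.35, 12.0, 10.4 and 12.2 units in HC libraries. It read 6.95, 3.92, 3.23 and 12.3 units in HT and 16.4, 9.31, 13.0 and 10.1 units in CON libraries. The knockout groups stayed within 7.35 to 12.2 units, and HT held both the 3 lowest values of all 15 libraries and 1 of the higher ones. HT differed from CON by -0.83 ± 0.38 (adjusted p = 0.378), or -0.43 with median-of-ratios factors, and the knockout difference was 0.34 ± 0.29 (adjusted p = 0.825). UTP23 (r = 0.886), TBKBP1 (r = 0.885) and ZFP512 (r = 0.872) were most like it.

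DGAT2, the other enzyme of that last step, at droplets and the endoplasmic reticulum (chr7:99153658-99182719), read 0.196, 0.588 and 0.882 units in HC/HT and 0.490, 0.980, 1.27 and 0.882 units in HC libraries. It read 0.196, 6.17, 0.196 and 0 units in HT and 3.33, 0.980, 0.882 and 0 units in CON libraries. The groups overlapped, and the knockout difference in the fit of all genes was -0.34 ± 0.40 (adjusted p = 0.879). The 2 highest values, in HT replicate 2 and CON replicate 1, stood in the libraries with the highest summed level of 12 heart-muscle markers, 11784 and 3526 units. Of the 18 fat-cell markers, FABP4 (29.0 and 21.5 units), RETN (1.96 and 1.47) and SLC2A4 (4.90 and 2.35) were also highest in these 2 libraries. They were picked after the values were seen, and other markers of that list peaked elsewhere. CAR3 (38.7 units), PPARG (8.91) and DIO2 (167) were highest in HC replicate 3, CEBPA (12.0) in HC replicate 2 and THRSP (8.91) in HC replicate 1. The summed level of the 18 fat-cell markers was highest elsewhere, in HC replicate 3 at 245 units. Heart-muscle markers ranged from 166 to 340 units in HC/HT, 206 to 1336 in HC, 373 to 11784 in HT and 507 to 3526 in CON libraries, and 11 of the 12 were above 0 in every library. The part of the heart-muscle and fat-cell markers in the DGAT2 values was not tested. DGAT2, PLIN1 and PNPLA2 lie on chromosome 7 with Apoe, at 79.5, 60.0 and 121.8 megabases from it.

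Genes around the droplet were counted on lists written with earlier results of these data known. In knockout against intact valves, where 1.47% of all genes passed, 1 of 10 lipolysis genes passed and was higher: LIPA, the acid lipase that frees cholesterol in lysosomes, averaged 163 ± 25.9 units in knockout (SD, n = 7) and 60.0 ± 27.3 units in intact valves (SD, n = 8). It differed by 1.39 ± 0.25 (adjusted p = 0.00198) without overlap, and no longer passed without the 3 least correlated libraries (adjusted p = 0.0717). The list median was 0.01, beside 0.09 for all genes.

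Of 22 genes of droplet biogenesis 17 were tested and 1 passed, with a median of 0.25. SOAT1, which esterifies cholesterol for storage in droplets, averaged 66.1 ± 13.3 units in knockout and 30.7 ± 12.7 units in intact valves. The difference was 1.09 ± 0.26 (adjusted p = 0.0268). It did not pass without HT replicate 2 (adjusted p = 0.146), HC replicate 2 (0.148) or HC/HT replicate 1 (0.226), without the 3 least correlated libraries (0.315), or with no filter on low values (0.0824).

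Among 15 tested droplet-associated genes 0 passed by limma, with a median of 0.28, and only TPD52 had an unadjusted p under 0.05 (0.76 ± 0.27, adjusted p = 0.204). Of 19 tested PPAR targets 1 passed, with a median of -0.07. UCP2, an uncoupling protein of the mitochondrial inner membrane, averaged 209 ± 28.5 units in knockout and 94.5 ± 32.7 units in intact valves. Its difference was 1.11 ± 0.23 (adjusted p = 0.00755), and it did not pass without HC/HT replicate 1 (adjusted p = 0.0514) or without the 3 least correlated libraries (0.130). In the same comparison 6 of 13 macrophage and 8 of 9 foam-cell markers passed as higher, and their part in the LIPA, SOAT1 and UCP2 values was not tested.

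Of the lipolysis, biogenesis, droplet-associated and PPAR lists, 10, 17, 15 and 19 genes were tested. In HC/HT against HT valves, where 0.373% of all genes passed, LIPA (1.53 ± 0.35, adjusted p = 0.0467) and UCP2 (1.38 ± 0.32, adjusted p = 0.0473) were the only genes of these 4 lists to pass. Both calls were lost on leaving out any 1 library other than CON replicate 4, HT replicate 1 or HC replicate 4, with adjusted p up to 0.357 for LIPA and 0.309 for UCP2. In HC against CON valves 0 genes of the 4 lists and 0.167% of all genes passed. LIPA differed by 1.25 ± 0.34 (adjusted p = 0.261) and SOAT1 by 0.97 ± 0.36 (adjusted p = 0.749). LIPA passed there with median-of-ratios factors (adjusted p = 0.0425), quantile normalisation (0.0305) or no sex term (0.0464), and without HT replicate 1 (0.0242). In HT against CON valves 0 genes of the 4 lists and 0% of all genes passed. The lowest p of a PPAR target there was that of PPARD, itself a receptor of the family (-1.19 ± 0.38, adjusted p = 0.351). The PPAR list's median there was -0.76 beside -0.42 for all genes, or -0.29 beside -0.01 with median-of-ratios factors.

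**Figure D4:**
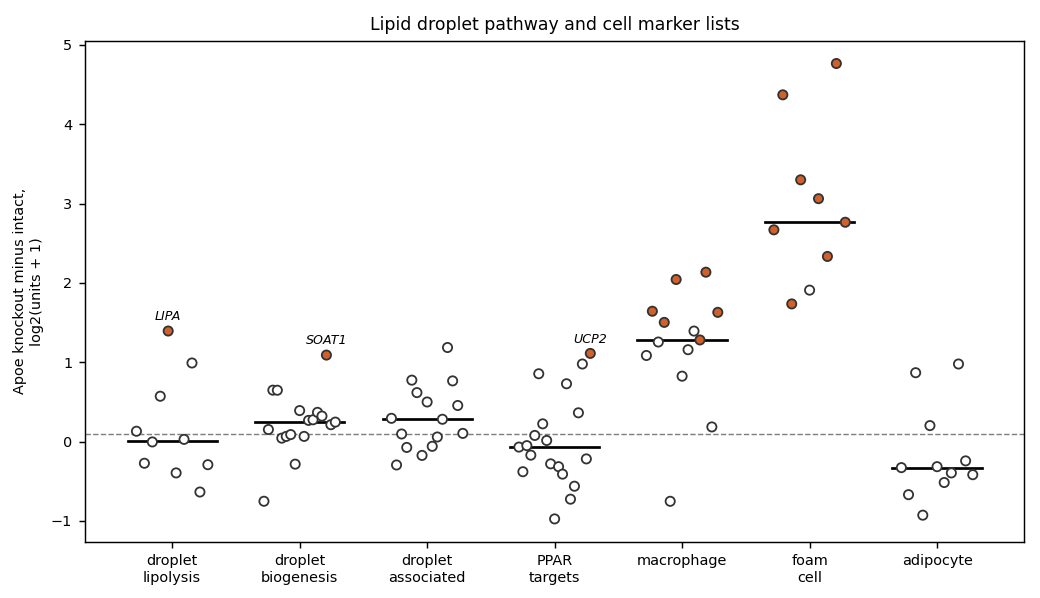
Difference of each tested list gene in Apoe knockout against intact valves (log2, vertical axis), 1 point a gene, by list along the horizontal axis. Filled points passed at an adjusted p under 0.05, black lines are list medians and the dashed line is the median of all genes at 0.09. LIPA (1.39), SOAT1 (1.09) and UCP2 (1.11) are the filled points of the droplet and PPAR lists, and 8 of 9 foam-cell markers are filled.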

How the data were processed

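The data are 1 table with a row for each of 20992 genes and 15 named libraries, and 1 value column without a name was left out. That column may hold HC/HT replicate 4, but no label says so. The deposited values are a score: the table is named as normalised, and its whole numbers with nearly equal totals were read as counts that the authors had scaled and rounded. How they normalised is not stated in the sources used here. Tools in the submitters' processing notes are Bowtie 1.0.1 with mm10, SAMtools 0.1.9, FastQC 0.11.2 and edgeR. Per the labels' protocols, cDNA was amplified from total RNA with the Nugen Ovation RNA-Seq System.

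Values were multiplied by 0.0979537, which set the median total to 1000000 units. The filter asked for 1 unit or more in 4 or more libraries and left 15004 genes. The limma package (3.58.1, R 4.3.3) was run on log2(units + 1), with group and sex as terms and all libraries in 1 model (eBayes with trend and robust), on which changes of low genes are understated. A gene passed at a two-sided Benjamini-Hochberg adjusted p under 0.05 within each of 8 comparisons. Members and lists were chosen with earlier results of these data known. All members are named, with the list genes that passed or had the lowest p and the 3 genes most like each tested member. Alternatives were other scalings, pseudocounts and filters, no sex term, the compared groups alone, a replicate block, and leaving out libraries. Positions and exon lengths are from GENCODE (GRCm38).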

Additional observations from a re-analysis of the deposited data

Results flagged for a closer look

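In 3 groups of 4 libraries, 1 library lay far from the other 3. Of 30 member-by-group sets examined, chance flags about 1 in 20 where values are continuous, a rate that does not hold for sets with ties at 0. For CIDEC in HC valves, replicate 2 read 0.490 units and the others 0, so the gap was 1 of the range. For CIDEB in CON valves, replicate 3 read 0.196 units and the others 0, again a gap of 1 of the range. For DGAT2 in HT valves, replicate 2 read 6.17 units and the others at most 0.196, a gap of 0.968 of the range. The critical value for 4 libraries is 0.829. Both gaps of 1 follow from 3 libraries tied at 0, whatever the other value, and rest on values under 0.5 units.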

How the results depend on the processing

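Depth is unknown, so values under about 1 unit carry little precision. PLIN2 was called in knockout against intact valves in all 25 alternatives, with differences of 1.45 to 1.93. In that comparison leaving out 1 library gave 1 to 2 members called, and a replicate block gave 2, CIDEC (-1.17) with PLIN2. The replicate block changed no other count of members called. Same-numbered libraries were not shown to pair, and pairing was not tested. Of 21 same-numbered pairs, 8 had a correlation of deviations over 0.1 (range -0.12 to 0.27). Different-numbered pairs ran from -0.26 to 0.38, and 4 of 15 libraries correlated best with their own number. In HC/HT against HT valves leaving out 1 library gave 0 to 1 members called. No filter gave 0 (PLIN2 adjusted p = 0.122), as did leaving out the 3 least correlated libraries (PLIN2 1.37, adjusted p = 1.00). In HC against CON valves quantile normalisation gave 1. The interaction for PLIN2 changed sign, to -0.15, without the 3 least correlated libraries, and the causes of these changes were not tested. Of 27 other member differences, which are not printed, 12 changed sign under at least 1 alternative and 0 passed, with a smallest adjusted p of 0.300. Over the alternatives, all-gene calls ranged from 45 to 419 in knockout against intact valves (220 as reported), 6 to 260 in HC/HT against HT (56), 7 to 222 in HC/HT against CON (70), 8 to 51 in HC against CON (25), 0 to 217 in HT against CON (0), 0 to 3 in HC/HT against HC (0) and 0 to 768 for the transgenes (2). The interaction gave 0 under each.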
